A study of Mus musculus with 65 samples.

Results

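Among 5309 autosomal SYCP3 peaks of Iho1KO testes, 663 (12.5%) recurred in Spo11KO testes and lay at no wild-type peak of CTCF, DMC1, HORMAD1 or IHO1, and most of these recurrent sites were promoters. They were chosen by the peak positions themselves: each is an Iho1KO SYCP3 interval on chromosomes 1 to 19 that shares at least 1 bp with a Spo11KO SYCP3 interval and none with the 4 wild-type lists. Of the 5309 peaks, 1515 (28.5%) had a Spo11KO partner, and 852 of those were removed: 415 touched a CTCF peak, 293 a DMC1 hotspot, 374 a HORMAD1 peak and 311 an IHO1 peak, some of them more than 1 list. The recurrent sites are therefore 43.8% of the partnered peaks, and their presence in the Iho1KO and Spo11KO SYCP3 lists and their absence from the 4 wild-type lists are the selection and not a finding.

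SYCP3 is a fibre-forming protein of the chromosome axis, the proteinaceous core along which the chromatin loops of a meiotic chromosome are anchored, and it is deposited in early meiotic prophase together with cohesin and HORMAD1. SPO11 makes the programmed DNA double-strand breaks of meiosis with the help of an axis-bound group of proteins that includes IHO1 and MEI4. IHO1 binds HORMAD1 and brings MEI4 to the axis, PRDM9 directs breaks to its DNA-binding sites, and DMC1 is the recombinase that coats the broken ends. An SYCP3 peak in chromatin immunoprecipitation is taken to mark DNA that was held close to the axis when the cells were fixed. That reading was not tested for the sites described here.

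The series mapped these proteins in whole testes of C57BL/6JCrl mice enriched in leptotene and zygotene spermatocytes (L/Z in the labels), the stages in which the axis forms and breaks are made. Pups aged 1.5 days were fed a blocker of retinoic acid for 7 to 10 days, a single injection of retinoic acid then started meiosis in step, and testes were taken 8 days later, all genotypes alike, at a stated purity of 80 to 95%. The genotypes used here are the wild type, B6;129P2-Prdm9tm1Ymat/J (Prdm9KO), Spo11tm1Mjn (Spo11KO), Mei4tm1Bdm (Mei4KO), Iho1tm1.2Atot (Iho1KO) and Hormad1tm1.2Atot (Hormad1KO). The SYCP3 groups of Iho1KO, Spo11KO and Prdm9KO had 1 sample each and those of the wild type, Mei4KO and Hormad1KO had 2, and every group had 1 peak list, of which only the positions were used.

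All 6 SYCP3 lists had the signal of the same 1 Sycp3tm1Hoog (Sycp3KO) library subtracted, so they share a control, and the HORMAD1, IHO1 and MEI4 lists likewise each share their own knockout. With 1 list per group, none of the shares has a replicate check. The 95% intervals below (Wilson for a share, Newcombe for a difference of 2 shares) cover counting error only and treat sites as independent, and a difference was called where its interval excluded 0. Sequencing depth is unknown for every list. Peak positions do not measure expression, so the labelled cell type was not checked against marker genes. The SYCP3 lists held 5380 peaks in Iho1KO, 2369 in Spo11KO, 1911 in the wild type, 1125 in Mei4KO, 823 in Hormad1KO and 607 in Prdm9KO, sex chromosomes included.

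A pair of rates frames each count: the background, that is, the share of all 5309 autosomal Iho1KO SYCP3 peaks, which includes the peaks that the selection removed, and the share of 2258 Iho1KO-only sites, which passed the same 4 exclusions but had no Spo11KO SYCP3 peak. The name refers to that pair of lists: 163 of the Iho1KO-only sites (7.22%) were SYCP3 peaks in at least 1 of the other 4 genotypes. The recurrent sites had a median width of 1199 bp (374 to 13431), and the Iho1KO-only sites one of 1137 bp (359 to 21680). The Spo11KO intervals covered the recurrent sites well, with a median overlap of 1095 bp. The shortest overlap was 78 bp, at chr9:55541709-55543109, followed by 374 and 408 bp. The nearest sites outside the selection missed a Spo11KO peak by 208 bp, at chr11:77512416-77514193, and by 363 and 369 bp.

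The promoters below are of genes with a recurrent site within 1 kb of the start, and all but that of Msh4 overlap the site. First are 3 genes whose sites recurred in most other SYCP3 lists (Rbm15b, Map3k12 and Cyp20a1). Then follow promoters of genes of the meiotic axis and synapsis (Sycp3, Hormad1, Tex12), of crossover formation (Msh4) and of meiotic entry (Meioc). Each runs 5′ to 3′ on the gene's own strand from 250 bases before to 50 bases after the RefSeq start (GRCm38.p6). Capitals mark matches, on either strand, to any of 12 short motifs that were searched.
Rbm15b, chr9:106887026-106887325, minus strand: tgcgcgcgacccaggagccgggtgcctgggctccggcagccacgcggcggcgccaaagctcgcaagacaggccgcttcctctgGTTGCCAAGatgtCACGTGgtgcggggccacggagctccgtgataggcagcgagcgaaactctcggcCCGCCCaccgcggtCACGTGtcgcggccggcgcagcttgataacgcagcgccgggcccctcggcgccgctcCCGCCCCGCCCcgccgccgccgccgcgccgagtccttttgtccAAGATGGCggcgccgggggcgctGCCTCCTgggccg
Map3k12, chr15:102510651-102510950, minus strand: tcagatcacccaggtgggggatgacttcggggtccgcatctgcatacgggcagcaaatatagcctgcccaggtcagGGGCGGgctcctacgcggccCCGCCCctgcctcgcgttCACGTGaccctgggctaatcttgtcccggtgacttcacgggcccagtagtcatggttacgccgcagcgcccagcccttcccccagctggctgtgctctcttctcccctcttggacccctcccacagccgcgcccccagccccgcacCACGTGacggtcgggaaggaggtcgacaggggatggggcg
Cyp20a1, chr1:60343050-60343349, plus strand: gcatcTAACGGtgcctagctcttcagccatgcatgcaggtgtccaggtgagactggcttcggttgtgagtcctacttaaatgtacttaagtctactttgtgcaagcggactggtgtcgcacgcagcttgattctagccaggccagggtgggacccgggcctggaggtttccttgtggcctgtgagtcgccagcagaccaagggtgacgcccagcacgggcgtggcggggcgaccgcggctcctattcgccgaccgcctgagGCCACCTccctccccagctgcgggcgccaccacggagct
Sycp3, chr10:88459337-88459636, plus strand: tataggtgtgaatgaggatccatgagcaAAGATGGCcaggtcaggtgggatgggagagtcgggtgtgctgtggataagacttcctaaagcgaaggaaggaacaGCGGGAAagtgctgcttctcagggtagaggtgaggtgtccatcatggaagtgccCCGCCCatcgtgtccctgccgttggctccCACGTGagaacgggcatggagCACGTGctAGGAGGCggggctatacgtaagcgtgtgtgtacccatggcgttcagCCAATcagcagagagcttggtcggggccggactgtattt
Hormad1, chr3:95559429-95559728, plus strand: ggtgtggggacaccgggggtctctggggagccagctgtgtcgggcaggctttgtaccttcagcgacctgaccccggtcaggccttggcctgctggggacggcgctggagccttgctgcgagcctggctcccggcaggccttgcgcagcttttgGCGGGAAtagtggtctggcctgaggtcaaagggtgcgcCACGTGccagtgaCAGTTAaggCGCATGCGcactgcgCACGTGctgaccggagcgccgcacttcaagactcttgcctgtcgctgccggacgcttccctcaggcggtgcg
Tex12, chr9:50561219-50561518, minus strand: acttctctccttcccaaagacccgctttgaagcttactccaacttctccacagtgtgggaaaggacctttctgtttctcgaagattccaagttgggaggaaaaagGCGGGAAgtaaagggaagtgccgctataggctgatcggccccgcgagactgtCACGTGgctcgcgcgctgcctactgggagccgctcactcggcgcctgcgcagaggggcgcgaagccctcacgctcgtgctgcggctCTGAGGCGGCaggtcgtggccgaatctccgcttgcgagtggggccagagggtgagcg
Msh4, chr3:153904842-153905141, minus strand: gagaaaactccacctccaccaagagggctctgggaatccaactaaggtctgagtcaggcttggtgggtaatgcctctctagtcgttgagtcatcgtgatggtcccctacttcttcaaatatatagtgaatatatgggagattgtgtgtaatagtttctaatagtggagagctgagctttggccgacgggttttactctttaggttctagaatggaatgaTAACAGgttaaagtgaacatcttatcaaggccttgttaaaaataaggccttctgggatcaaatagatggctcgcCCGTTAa
Meioc, chr11:102665335-102665634, plus strand: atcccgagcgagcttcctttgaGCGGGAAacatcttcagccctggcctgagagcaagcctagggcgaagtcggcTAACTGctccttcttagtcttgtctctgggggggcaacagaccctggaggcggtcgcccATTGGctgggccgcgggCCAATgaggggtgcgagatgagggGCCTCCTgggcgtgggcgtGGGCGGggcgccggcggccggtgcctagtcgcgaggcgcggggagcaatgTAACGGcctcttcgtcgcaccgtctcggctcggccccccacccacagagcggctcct

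The motifs were the GC box of SP and KLF factors (GGGCGG), the CCAAT box of NF-Y (CCAAT), NRF1 (CGCATGCG), ETS (CCGGAAG), the cAMP response element (TGACGTCA), the E-box (CACGTG), YY1 (AAGATGGC), E2F (TTCCCGC), MYB (TAACNG), STRA8 (CNCCTCAG), RFX (GTTGCCNNG) and a CTCF core (AGGNGGC), and matches of different motifs can overlap. The Rbm15b promoter held 46 CpG dinucleotides and 8 matches, to the CTCF core, E-box, GC box, RFX and YY1 letters. E-box letters were also in the promoters of Map3k12, Sycp3, Hormad1 and Tex12. The Hormad1 promoter was 67.3% G and C and held E-box, E2F, MYB and NRF1 letters. The Tex12 promoter held E2F, E-box, STRA8 and CTCF-core letters. The promoter of Msh4 was unlike the other 7, with 6 CpG dinucleotides, 43.3% G and C and MYB letters only. The Msh4 site (chr3:153905161-153906406) lies wholly upstream of the printed window, so the printed letters are not those of the site. A match is a run of letters and not a measured binding site.

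Most recurrent SYCP3 sites lay at transcription starts. On the 18 autosomes for which starts are listed, 454 of 654 recurrent sites (69.4%, 65.8 to 72.8) lay within 1 kb of the start of a protein-coding gene. The background over all autosomal Iho1KO SYCP3 peaks was 58.5%, and the Iho1KO-only sites reached 70.0%. The difference from the latter was -0.631 percentage points (-4.72 to 3.29), which was not called, so lying at a start did not set recurrent sites apart from the comparison sites. Ends of genes, which add those without a listed start and those on chromosome 18, were within 1 kb of 544 of 663 recurrent sites (82.1%) and of 78.3% of the Iho1KO-only sites, a difference of 3.71 points (0.193 to 6.95).

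The centres of the sites lay just inside the transcribed region. Of 446 recurrent sites centred within 1 kb of their nearest start, 356 (79.8%) were centred downstream of it, with a median of 138 bp, and 307 (68.8%) within 250 bp of it. For the Iho1KO-only sites 81.2% were centred downstream, the median was 172 bp, and 63.1% were within 250 bp. At 50 of the 454 start sites (11%) the starts of 2 or more genes lay within 1 kb, and at 44 (9.69%) these were a divergent pair, that is, genes transcribed away from each other. Divergent pairs were more frequent than the 5.95% at Iho1KO-only start sites, by 3.74 points (1.02 to 6.99). This comparison was not planned, and no background share was computed for it. Recurrent sites were wider (median 1199 against 1137 bp over all sites), and the part of width in it was not tested.

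**Figure D1:**
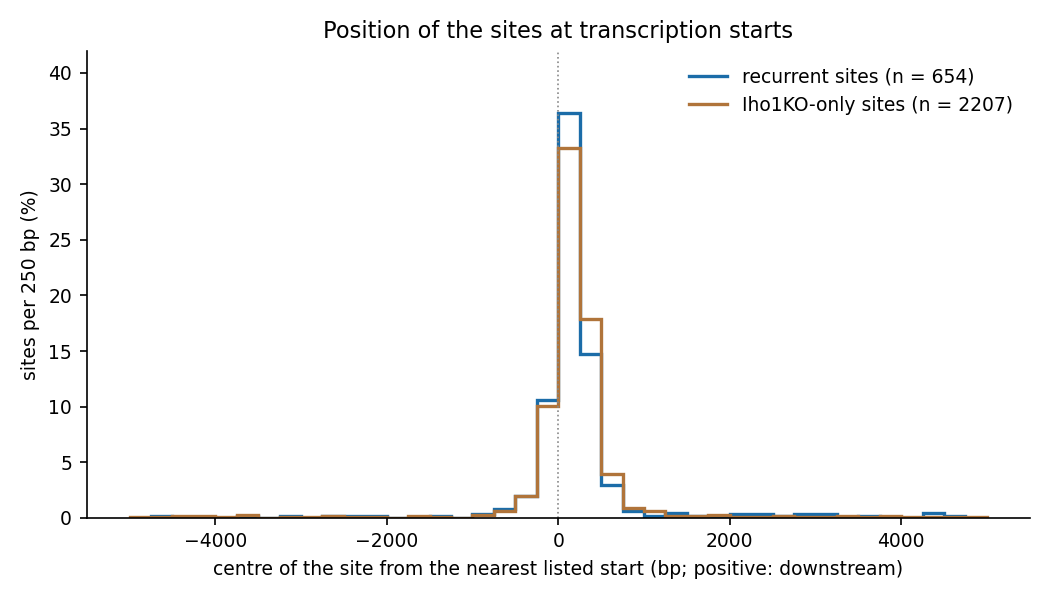
Distance from the nearest listed transcription start to the centre of each site, in bins of 250 bp, for recurrent sites and Iho1KO-only sites as percent of the sites of each kind (chromosome 18 left out, distances past 5 kb not drawn). Both curves peak in the bin just downstream of the start, which held 36.4% of the recurrent sites.

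The promoters at recurrent sites were rich in CpG. The 574 promoters listed there had a median of 27.0 CpG dinucleotides in 300 bases, against 29.0 for 1948 promoters at Iho1KO-only sites and 14.0 for all 20084 promoters in the table. Promoters with 10 or fewer CpG were 5.92% at recurrent sites, 6.72% at Iho1KO-only sites and 44.1% of the whole table. Both kinds of site thus took almost all their promoters from the CpG-rich class. The median G and C content was 65.0% at recurrent sites, 67.3% at Iho1KO-only sites and 57.0% in the table.

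**Figure D2:**
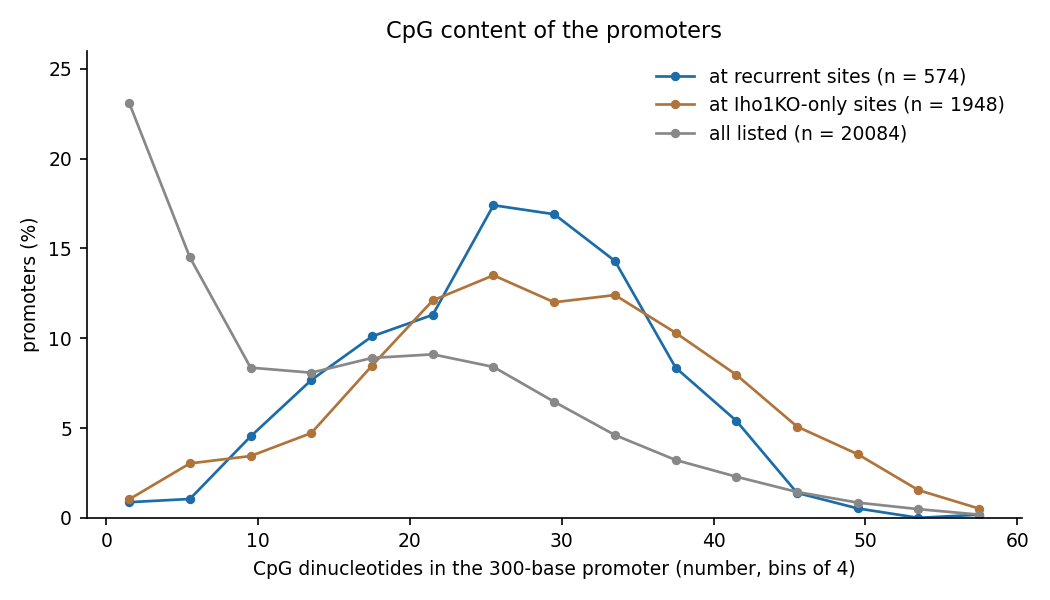
CpG dinucleotides per 300-base promoter, in bins of 4, as percent of the promoters at recurrent sites, at Iho1KO-only sites and in the whole RefSeq table (promoters with more than 59 are not drawn). The promoters at recurrent sites fall on the CpG-rich side, with a median of 27.0 against 14.0 in the table.

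Motif letters differed in both directions between promoters at recurrent and at Iho1KO-only sites. ETS letters, the core read by a family of activators of housekeeping genes, were in 23.3% of the promoters at recurrent sites, 16.9% at Iho1KO-only sites and 11.9% of all promoters. The MYB motif was in 20.7%, 14.4% and 21.0%, E2F in 12.9%, 9.34% and 6.05%, and NRF1 in 6.45%, 4.67% and 2.54%. The GC box went the other way among the sites, with 72.5% at recurrent sites, 79.4% at Iho1KO-only sites and 47.0% of all promoters, as did the CTCF core, with 41.3%, 50.5% and 33.9%. These shares are descriptions without a test, base composition differed between the sets as well, and its part in them was not tested. E-box letters were in 12.4%, 11.1% and 7.89%, STRA8 letters in 8.89%, 9.91% and 8.57%, CCAAT in 36.6%, 33.9% and 38.1%, YY1 in 5.92%, 4.41% and 3.06%, RFX in 7.67%, 5.44% and 5.17%, and the cAMP response element in 3.31%, 2.41% and 2.30%.

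The sites named 624 protein-coding genes, by a start within 1 kb or, for a gene without a listed start, by either end. That is 3.02% of the 20661 autosomal protein-coding genes, and the Iho1KO-only sites named 9.70%. Genes of the meiotic axis and synapsis were among them: 3 of 14, all 3 by their starts and none of the 14 at an Iho1KO-only site. At any autosomal Iho1KO SYCP3 peak there were 5 of the 14 (35.7%), beside 19.5% of all genes, and these shares were not tested. Sycp3, which encodes the precipitated protein and is the gene altered in the shared control, had a site at chr10:88459287-88460778 that was also an SYCP3 peak in Mei4KO. Hormad1, the HORMA-domain protein that recruits IHO1 to the axis, had a site of 1004 bp at chr3:95559324-95560327, and Tex12, a component of the central element of the synaptonemal complex, 1 of 900 bp at chr9:50560844-50561743. Neither of the latter was a peak in any of the other 18 lists.

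Of 39 genes of break formation and repair, 4 (10.3%) were at recurrent sites and 5 at Iho1KO-only sites. At any autosomal Iho1KO SYCP3 peak there were 11 (28.2%), beside 19.5% of all genes. Of the 4, 3 are described here. Meiob, a meiotic partner of the single-strand-binding protein, had a site at chr17:24803903-24805402 with an SYCP3 peak in Mei4KO. Msh4, of the complex that stabilises crossover intermediates, and Rad50, of the break-resecting MRN complex, had sites with no peak in the other 18 lists. For Meiob and Rad50 the table gives no start, so the end of the gene at the site is not known.

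Of 8 genes of meiotic entry, 1 had a site: Meioc, whose protein works with the RNA helicase YTHDC2 in the switch from mitosis to meiosis, at chr11:102664640-102666428, where Mei4KO also had an SYCP3 peak. Of 19 genes of the piRNA pathway 1 had a site, Mael, and of 17 spermatogonial markers 2 had, Etv5 and Dmrtb1, both with an SYCP3 peak in Mei4KO. Sites were at 0 of 24 spermatid genes, 0 of 12 Sertoli cell markers, and 0 of 12 Leydig, peritubular and immune cell markers. At the rate of all genes, 3.02%, lists of this size would hold under 1 gene each. Any autosomal Iho1KO SYCP3 peak was at 4 of 8 genes of meiotic entry, 7 of 19 piRNA genes and 3 of 17 spermatogonial markers. It was at 2 of 24 spermatid genes, 0 of 12 Sertoli cell markers and 1 of 12 Leydig, peritubular and immune cell markers, beside 19.5% of all genes. None of these shares was tested.

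Groups of broadly expressed genes had shares at recurrent sites from 4.17% to 10.9%, beside the 3.02% of all genes, and several rest on 1 or 2 genes. At any autosomal Iho1KO SYCP3 peak their shares ran from 15.4% (replication factors) to 7 of 14 genes (cohesin and its partners), beside 19.5% of all genes, and none of these shares was tested. Subunits of oxidative phosphorylation were at recurrent sites in 9 of 93 cases (9.68%, among them Uqcrq, Cox20 and Ndufb2) and at Iho1KO-only sites in 4. Mitochondrial ribosomal proteins were there in 7 of 78 (Mrpl12, Mrps22, Mrps10), cytosolic ribosomal proteins in 6 of 82 (Rpl27a, Rpl35, Rpl10a), and splicing and RNA-binding factors in 7 of 64 (Hnrnpr, Sf3a2, Hnrnph3). Translation factors were there in 4 of 67 (Eif3m, Eif4a1, Eif4g2) and at Iho1KO-only sites in 12. Proteasome subunits were there in 2 of 48 (Psma3, Psme3), replication factors in 2 of 26 (Orc6, Rfc1), and cohesin and its partners in 1 of 14 (Mau2, a subunit of the cohesin loader). At Iho1KO-only sites, which named 9.70% of all genes, there were 8 mitochondrial ribosomal, 6 cytosolic ribosomal and 12 splicing and RNA-binding genes. Of the other lists, 2 proteasome subunits, 3 cohesin genes and 0 replication factors were at Iho1KO-only sites.

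Histone genes, which lie in clusters, were at recurrent sites in 8 of 67 cases (11.9%), some of them by a shared site, beside 3.02% of all genes. At Iho1KO-only sites there were 5. At any autosomal Iho1KO SYCP3 peak there were 33 (49.3%), beside 19.5% of all genes, and none of these shares was tested. A stretch of 3 sites on chromosome 13 (chr13:23738277-23753585) covered the starts of H1f2, of H3c3 with H2bc3, and of H3c2 with H2ac4. The H1f2 site was a peak of SYCP3 in Mei4KO and Hormad1KO and of IHO1 in Hormad1KO. H3c15 on chromosome 3 had peaks of HORMAD1 in Spo11KO, Mei4KO and Iho1KO.

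The next counts, also untested, stand beside 3.02% of all genes at recurrent sites and 9.70% at Iho1KO-only sites. Of 386 genes named Zfp, 7 (1.81%, among them Zfp768, Zfp276 and Zfp282) were at recurrent sites and 46 (11.9%) at Iho1KO-only sites. Of 39 Hox genes, 0 were at recurrent sites and 5 at Iho1KO-only sites. None of 1456 olfactory and vomeronasal receptor genes was at either kind of site.

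Mei4KO was the genotype whose SYCP3 list held the recurrent sites most often among the 4 SYCP3 lists that the selection did not use. Of the 663 sites, 294 (44.3%, 40.6 to 48.1) were SYCP3 peaks in Mei4KO, against 115 of 2258 Iho1KO-only sites (5.09%) and a background of 17.8% of all Iho1KO SYCP3 peaks, a difference from the Iho1KO-only sites of 39.3 points (35.4 to 43.1). In Prdm9KO, 88 sites were SYCP3 peaks (13.3%), against 0.886% of the Iho1KO-only sites and a background of 9.04%, a difference of 12.4 points (9.97 to 15.2). These were the 2 lists of the 18 in which the recurrent sites stood above the background rate as well as above the Iho1KO-only sites. The selection required recurrent sites to lie in a second SYCP3 list with the same control, and Iho1KO-only sites to lack it. More overlap with further SYCP3 lists is therefore partly built in. Of the background peaks 28.5% had a Spo11KO partner, and the removed partnered peaks were not compared separately. The Mei4KO list had 1109 autosomal peaks and the recurrent sites took 293 of them (26.4%), and of the 576 autosomal Prdm9KO peaks they took 87 (15.1%).

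The wild type and Hormad1KO held few of the sites. In the wild type, 34 sites (5.13%) were SYCP3 peaks, below the background of 12.1% and above the 1.64% of the Iho1KO-only sites by 3.49 points (1.93 to 5.49). In Hormad1KO, 45 sites (6.79%) were, below the background of 10.9% and above the 0.886% of Iho1KO-only sites by 5.90 points (4.16 to 8.10). A run of 14 sites at the distal end of chromosome 9, described further on, gave 10 of the 34 wild-type overlaps, and without it the wild-type difference was 2.10 points (0.755 to 3.90). Among sites at starts alone the wild-type difference was 0.493 points (-0.212 to 1.87), which was not called, while that of Hormad1KO was 2.67 points (1.43 to 4.65) and that of Mei4KO 41.9 points (37.2 to 46.6). The wild-type list had 1847 autosomal peaks, of which the recurrent sites took 33 (1.79%), and the part of list length in these overlaps was not tested.

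By combination, 323 recurrent sites (48.7%) were in none of the 4 lists, 218 (32.9%) in that of Mei4KO alone, 44 in those of Mei4KO and Prdm9KO, and 19 in that of Prdm9KO alone. Of the Iho1KO-only sites, 92.8% were in none of the 4 lists, a contrast that the selection partly built in. As the lists share the Sycp3KO control, the combinations describe the sites and were not tested. Among the 294 sites in the Mei4KO list the median width was 1292 bp, and 72.7% of those with listed starts were at a start. For the 369 sites outside that list these values were 1131 bp and 66.8%.

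**Figure D3:**
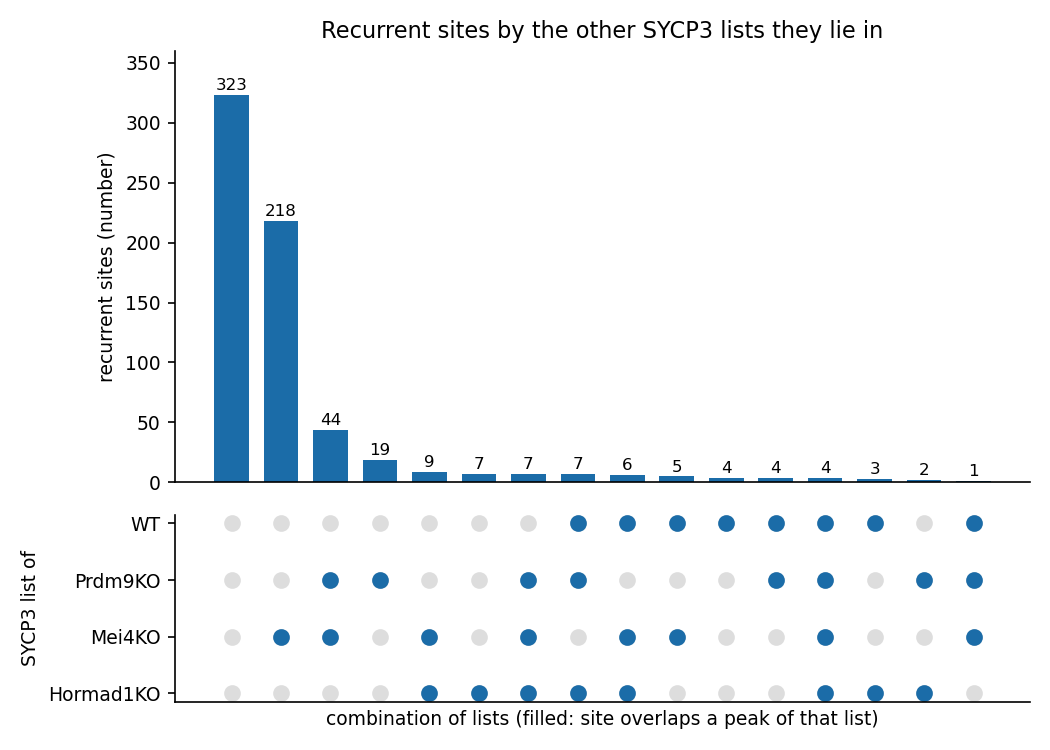
Number of the 663 recurrent sites in each combination of the 4 SYCP3 lists that the selection did not use. Bars give the number of sites, and filled circles below a bar name the lists. The first 2 bars, none of the lists (323) and Mei4KO alone (218), hold most of the sites.

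The sites found in all 4 of these lists, and therefore in all 6 SYCP3 lists, were 4. The site at chr9:106882688-106887888 covers the start of Rbm15b, an RNA-binding adaptor of the m6A methyltransferase complex, and it was also a peak of HORMAD1 in Prdm9KO, Spo11KO and Mei4KO and of IHO1 in Prdm9KO, Spo11KO, Mei4KO and Hormad1KO. The site at chr9:53609370-53612190 lies at an end of Acat1, which encodes a mitochondrial acetyl-CoA acetyltransferase. The other two lie outside genes, at chr6:128307957-128309025, 7144 bp from Tead4, and at chr15:99415744-99417042, 5695 bp from Tmbim6. None of the 4 was a MEI4 peak in any genotype.

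A further 8 sites were ranked next, each in 3 of the 4 lists. Map3k12, a stress-activated kinase, had the second widest site of all (11425 bp, chr15:102502539-102513963), a peak of SYCP3 in the wild type, Prdm9KO and Mei4KO, of HORMAD1 in all 4 knockouts mapped and of IHO1 in Prdm9KO, Spo11KO and Mei4KO. The site at the start of Cyp20a1, a cytochrome P450 gene (chr1:60341744-60344722), was a peak of SYCP3 in Prdm9KO, Mei4KO and Hormad1KO, of HORMAD1 in Spo11KO, Mei4KO and Iho1KO and of IHO1 in Spo11KO. The site at an end of Insm1, a zinc finger regulator of neuroendocrine cells (chr2:146220525-146224832), and the site 16552 bp from Lin9, a subunit of a cell-cycle gene regulator (chr1:180623378-180624598), were SYCP3 peaks in the wild type, Mei4KO and Hormad1KO. The site 11704 bp from Gabrr1 (chr4:33118166-33120852) was one in the wild type, Prdm9KO and Hormad1KO, and the other 3 belong to the distal run of chromosome 9. Most of these leading sites were thus outside listed starts, though for Acat1 and Insm1 no start is listed. The ranking used all 4 of these SYCP3 lists, then HORMAD1 and IHO1 lists, and most of them were more frequent away from starts. SYCP3 in Mei4KO was more frequent at starts, and the difference of SYCP3 in Prdm9KO was not called. The position of the leading sites is therefore no separate result.

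HORMAD1, which the selection barred at these sites in the wild type only, was present at a minority of them in the knockouts. In Mei4KO, 74 sites (11.2%, 8.98 to 13.8) were HORMAD1 peaks, against a background of 16.2% and 7.26% of the Iho1KO-only sites, a difference of 3.90 points (1.44 to 6.71). In Iho1KO, 47 sites (7.09%) were, against a background of 18.3% and 5.09% of the Iho1KO-only sites, a difference of 2.00 points (0.0169 to 4.36) that 6 of the 8 alternatives tried did not call. In Spo11KO, 46 sites (6.94%) were, against a background of 17.7% and 3.01%, a difference of 3.93 points (2.06 to 6.21). In Prdm9KO, 31 sites (4.68%) were, against a background of 11.1% and 1.15%, a difference of 3.52 points (2.06 to 5.44), or 2.28 (1.03 to 4.01) without the distal run of chromosome 9. In all 4 genotypes the share at recurrent sites stood between that of the Iho1KO-only sites and the background, which holds the peaks removed for lying at wild-type HORMAD1 and IHO1. Among sites at starts alone the differences from Iho1KO-only sites were smaller, at 2.99 points in Mei4KO, 1.75 in Spo11KO, 1.22 in Prdm9KO and, not called, 1.13 in Iho1KO. Recurrent sites had to lie at a Spo11KO SYCP3 peak and Iho1KO-only sites to lack one. The part of that selection in these differences, and in those of IHO1 below, was not tested.

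IHO1 followed the same order at lower shares. In Mei4KO, 42 recurrent sites (6.33%, 4.72 to 8.45) were IHO1 peaks, against a background of 11.5% and 1.95% of the Iho1KO-only sites, a difference of 4.39 points (2.64 to 6.56). In Spo11KO, 41 sites (6.18%) were, against a background of 11% and 1.11%, a difference of 5.08 points (3.40 to 7.20). In Prdm9KO, 14 sites (2.11%) were, against a background of 5.22% and 0.177%, a difference of 1.93 points (1.04 to 3.34). Of these 14, 9 lay in the distal run of chromosome 9, and the difference without it was 0.637 points (0.127 to 1.66). Among sites at starts alone the IHO1 differences were 1.31 points in Mei4KO, 2.63 in Spo11KO and 0.661 in Prdm9KO, all 3 called. In Mei4KO, 21 sites were peaks of both proteins, of the 42 with IHO1 and the 74 with HORMAD1.

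IHO1 peaks in the absence of HORMAD1 were few at the recurrent sites, and most of them, like most recurrent sites, were at starts. In Hormad1KO, 14 sites (2.11%) were IHO1 peaks, against a background of 2.92% of all Iho1KO SYCP3 peaks and 2 of 2258 Iho1KO-only sites (0.0886%), a difference of 2.02 points (1.14 to 3.43). Of the 14, 12 were at transcription starts, beside 69.4% of all recurrent sites on autosomes with listed starts. At starts the difference from Iho1KO-only start sites was 2.58 points (1.41 to 4.50). The genes, listed after their values were seen, were Rbm15b, Kpnb1 (importin beta, chr11:97186559-97189162), G3bp2 (a stress granule protein), Taf9 (a subunit of the basal transcription factor TFIID), Cherp, Rbbp4 (a histone chaperone), H1f2, Lamtor1, Plekhj1 with Sf3a2, Dnajb1, Hnrnph3 and Rexo1. Of the 14 sites, 6 were IHO1 peaks in another genotype as well: Rbm15b, Kpnb1, Taf9, Cherp and the remaining 2, which were the one 6081 bp from Rdm1 and 1 in the distal run of chromosome 9. At 11 of the 12 starts, all but that of Rexo1, SYCP3 was also a peak in Mei4KO, beside 46.3% of all recurrent start sites.

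**Figure D4:**
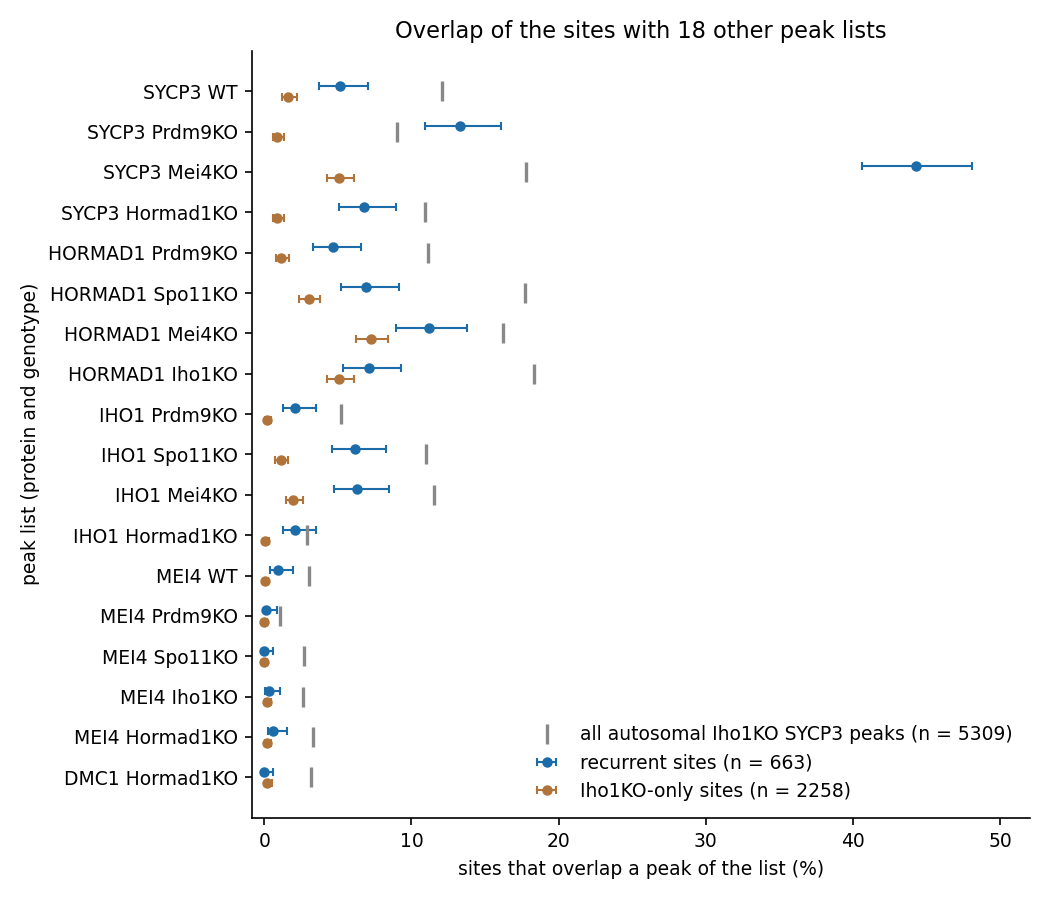
Percent of sites that overlap a peak of each of 18 lists, for the 663 recurrent sites and the 2258 Iho1KO-only sites with 95% Wilson intervals, and for all 5309 autosomal Iho1KO SYCP3 peaks as a grey tick. SYCP3 in Mei4KO (44.3%) and in Prdm9KO (13.3%) are the rows in which the recurrent sites lie to the right of the tick.

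The recurrent sites split by position into 2 kinds with different partners. Of the 454 sites at starts, 54 (11.9%, 9.23 to 15.2) were HORMAD1 or IHO1 peaks in at least 1 of the 8 knockout lists, while of the 83 sites more than 1 kb from any listed start or gene end, 50 (60.2%, 49.5 to 70.1) were, a difference of -48.3 points (-58.6 to -37.1). Of those 83 distant sites, 31 lay inside a gene and 52 outside genes. The 126 sites at a gene end without a listed start lay between the 2 kinds, with 33.3%. In all, 517 of the 663 sites (78.0%) were in none of the 8 lists, as were 88.0% of the Iho1KO-only sites. Without the distal run of chromosome 9 the difference between start and distant sites was -45.2 points (-56.4 to -33.3).

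The contrast held for each HORMAD1 list, and for SYCP3 it depended on the genotype. HORMAD1 in Spo11KO was at 2.20% of the start sites and 28.9% of the distant sites, in Mei4KO at 6.61% and 33.7%, in Iho1KO at 2.42% and 27.7%, and in Prdm9KO at 1.54% and 20.5%, and all 4 differences were called. That of Prdm9KO was -18.9 points, or -11.0 (-20.6 to -4.95) without the distal run of chromosome 9. IHO1 in Mei4KO was at 1.76% and 24.1%, in Spo11KO at 3.08% and 16.9%, and in Prdm9KO at 0.661% and 10.8%, the last not called without the distal run of chromosome 9 (-2.12 points, -8.93 to 0.262), while IHO1 in Hormad1KO was at 2.64% and 1.20%, 1.44 points apart (-3.99 to 3.60), an interval that includes 0. Wild-type SYCP3 was at 4 start sites (0.881%) and at 21 distant sites (25.3%), a difference of -24.4 points, or -15.8 (-26.0 to -8.78) without the distal run of chromosome 9, and Hormad1KO SYCP3 at 2.86% and 24.1%. Mei4KO SYCP3 ran the other way, at 46.3% of the start sites and 30.1% of the distant sites, a difference of 16.1 points (4.63 to 26.1). Prdm9KO SYCP3 was at 12.1% and 19.3%, -7.16 points apart (-17.3 to 0.630), which does not exclude 0, and the sign turned without the distal run (0.809) and among the wider 50% of the sites (1.17). Distant sites were wider, with a median of 1463 bp against 1138 bp. Among the wider 50% of the sites the differences of the 8 lists combined, of wild-type SYCP3 and of Mei4KO SYCP3 were called too. Widths were not matched among those sites, so the part of width was not tested.

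**Figure D5:**
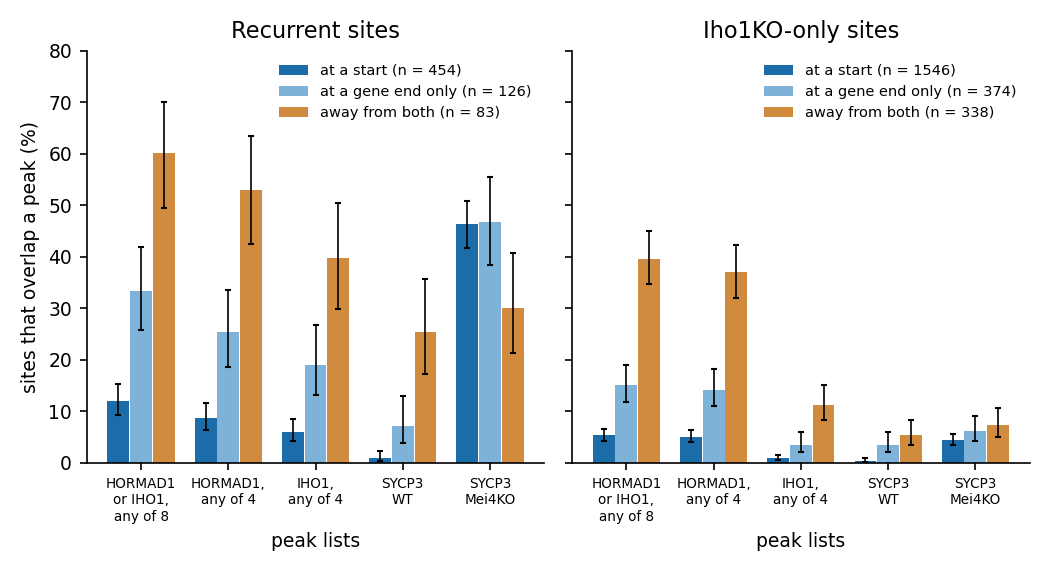
Percent of sites that overlap a peak of HORMAD1 or IHO1 in any knockout list, of wild-type SYCP3 and of Mei4KO SYCP3, for sites at a start, at a gene end only, and away from both. Left, recurrent sites; right, Iho1KO-only sites; error bars are 95% Wilson intervals. Among recurrent sites the HORMAD1 or IHO1 share runs from 11.9% at starts to 60.2% away from both.

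The split was not particular to the recurrent sites. Among Iho1KO-only sites the share in any of the 8 lists was 5.30% at starts and 39.6% at distant sites. Among the peaks removed by the exclusions, with or without a Spo11KO partner, it was 17.3% and 91.0%. Those peaks were removed for lying at wild-type HORMAD1, IHO1, CTCF or DMC1 peaks, so their shares depend on that choice and are no separate evidence of the split. Within each position the recurrent sites had more HORMAD1 or IHO1 overlap than the Iho1KO-only sites, by 6.59 points (3.66 to 10.0) at starts, 18.4 (9.76 to 27.6) at gene ends and 20.6 (8.60 to 31.7) at distant sites. Iho1KO-only sites had to lack a Spo11KO SYCP3 peak, and the part of that selection in these differences was not tested. Mei4KO SYCP3 was at 46.3% of the recurrent start sites and 30.1% of the distant ones, at 4.33% and 7.40% of the Iho1KO-only sites, and at 18.3% and 26.1% of the removed peaks.

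The 4 recurrent start sites that were SYCP3 peaks in the wild type were those of Rbm15b, Map3k12, Clasrp and Cebpzos. Sites with HORMAD1 or IHO1 peaks in at least 5 of the 8 knockout lists were 9, and 6 of these were distant sites. These 2 groups were listed after their values were seen. The site at chr11:101642170-101645547, outside genes and 6081 bp from an end of Rdm1, was the one with all 8, and it was an SYCP3 peak in Mei4KO and Hormad1KO as well. The site at chr4:129129513-129131732, 5267 bp from the start of Fndc5, was in 6.

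MEI4 was rare at the recurrent sites, with peaks at 10 of them in any genotype. In the wild type, 6 sites (0.905%) were MEI4 peaks, against a background of 3.01% and 1 of 2258 Iho1KO-only sites, and all 6 lay in the distal run of chromosome 9, without which the count was 0 of 649. Hormad1KO had 4 sites (0.603%, background 3.30%), Iho1KO 2 (0.302%, background 2.64%), Prdm9KO 1 (0.151%, background 1.07%) and Spo11KO 0, which allows a share of up to 0.452% (background 2.71%). The differences from Iho1KO-only sites in these 4 genotypes were not called. The starts of Rbbp4 (chr4:129334457-129335966) and Lamtor1 (chr7:101905601-101906471), which encodes a lysosomal anchor of nutrient signalling, were MEI4 peaks in both Iho1KO and Hormad1KO, and both were IHO1 peaks in Hormad1KO. Gas2l1 had the other site outside chromosome 9, with MEI4 in Hormad1KO. DMC1 in Hormad1KO was at 0 of the 663 sites, which allows up to 0.452%, against a background of 3.15% and 5 Iho1KO-only sites (0.221%).

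The distal end of chromosome 9 held the densest run of recurrent sites, and it did not resemble the rest. There were 14 sites in chr9:123596358-124442827, 12 of them in chr9:124327983-124442827 with no gap over 50 kb. Of the 14, 10 were SYCP3 peaks in the wild type, 10 in Prdm9KO, 8 in Hormad1KO and 1 in Mei4KO. HORMAD1 was at 9 in Prdm9KO, 4 in Spo11KO, 5 in Mei4KO and 3 in Iho1KO, and IHO1 was at 9 in Prdm9KO, 1 in Hormad1KO and 0 in Spo11KO and Mei4KO. MEI4 was at 7 in any genotype, 6 of them in the wild type. The nearest genes are Slc6a20b, an amino acid transporter gene, Nlrp4g, 2010315B03Rik, Gm20783, LOC108167694 and LOC108167320. The widest recurrent site of all (13431 bp, chr9:123598302-123611732) lies here, inside Slc6a20b, with HORMAD1 in Prdm9KO, Spo11KO and Iho1KO and IHO1 in Prdm9KO, as does the fourth widest (8153 bp, chr9:124350248-124358400) at Nlrp4g, the one recurrent site with a MEI4 peak in Prdm9KO.

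Elsewhere the sites were scattered. Counting sites within 50 kb of each other as 1 run, 555 sites stood alone, 42 runs held 2 and 4 held 3. Per 1000 protein-coding genes, chromosome 16 had 54.5 sites and chromosome 9 51.6, while chromosome 18 had 17.6 and chromosome 17 19.8. The 62 sites of chromosome 9 include the 14 of its distal run. As a share of the chromosome's own Iho1KO SYCP3 peaks, chromosome 16 was highest with 20.8% (37 of 178) and chromosome 18 lowest with 6.77% (9 of 133). The remaining 2 of the 5 widest sites were at Ezh2 and Cul1 (9271 bp, chr6:47525674-47534944), with SYCP3 in the wild type and IHO1 in Mei4KO, and near Npepps and Kpnb1 (7571 bp, chr11:97197928-97205498), with SYCP3 in Hormad1KO and HORMAD1 in Prdm9KO and Iho1KO.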

How the data were processed

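Peak lists of 24 groups, 1 per group, were used as deposited. Per the submitters' processing notes, Bowtie2, MACS2 and mm10 were used, with no versions given, and the authors subtracted the signal of each protein's own knockout, per the design text of the series. The deposited values used are positions, in base pairs and counted here from 1. Whether replicates were pooled is not stated. A site was at a peak where the intervals shared at least 1 bp, at a start within 1 kb of a RefSeq start (GRCm38.p6, the build of mm10), and otherwise at a gene end. Starts were listed for 16456 of 20661 autosomal protein-coding genes (79.6%) and not for chromosome 18. No p-values were computed.

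The sites and the 20 gene lists were chosen with earlier results of these data known. Named sites are the 12 in most of the 4 unused SYCP3 lists (ties by HORMAD1 and IHO1, then MEI4 lists, then width), the 5 widest, those of meiotic and germline genes, those with MEI4, and the first 3 genes of each other list. The site of 1 named gene is not reported here. The contrast of sites at starts and away from gene starts and ends and all values without the distal run of chromosome 9 were added after the data were examined. Alternatives changed the overlap to 50% of the shorter interval, the interval to a 1 kb central window, the sites to the wider 50% or to those at starts, the selection (50% overlap, exclusions widened by 1 kb) and the comparison sites. For starts, the alternatives also took all genes, either gene end, and margins of 0 and 5 kb. The code was tested on simulated intervals. Python 3.11.15, pandas 2.3.3, numpy 2.4.6, scipy 1.17.1 and matplotlib 3.10.9 were used.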

Additional observations from a re-analysis of the deposited data

How the results depend on the processing

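The selection gave 661 sites with a 50% overlap in the rule, 641 with exclusions widened by 1 kb, 658 counted as Spo11KO intervals and 649 without the distal run of chromosome 9. No paired analysis was possible because each group has 1 list, not 1 per replicate, and for the same reason no replicate could be left out. Of 158 recomputed values for the recurrent sites, these 4 counts included, 126 kept direction and call.

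With all other autosomal Iho1KO SYCP3 peaks as comparison, which brings in the peaks removed at wild-type HORMAD1, IHO1, DMC1 and CTCF, most differences turned: SYCP3 -8.00 points (WT) and -4.75 (Hormad1KO), HORMAD1 -7.31 (Prdm9KO), -12.3 (Spo11KO), -5.73 (Mei4KO) and -12.8 (Iho1KO), IHO1 -3.55 (Prdm9KO), -5.52 (Spo11KO), -5.96 (Mei4KO) and -0.923 (Hormad1KO, not called), MEI4 -2.41 (WT), -1.05 (Prdm9KO), -2.67 (Iho1KO) and -3.08 (Hormad1KO), and starts 12.5. MEI4 in Spo11KO (-3.10) and DMC1 in Hormad1KO (-3.59) became called. SYCP3 in Mei4KO and Prdm9KO kept direction and call.

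HORMAD1 in Iho1KO lost its call with 50% overlap (1.85), a 1 kb window (1.85), the wider 50% (3.27), widened exclusions (1.90), sites at starts (1.13) and without the distal run (1.72). At starts alone SYCP3 WT (0.493) and MEI4 WT (0) lost theirs, and without the distal run MEI4 WT was -0.0444. MEI4 in Hormad1KO became called with 50% overlap (0.470) and the wider 50% (0.815). The uncalled difference at starts turned to 0.261 with widened exclusions, 0.876 with no margin, 0.572 without the distal run and, called, 3.71 with either gene end.

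Of 78 values for sites at against away from gene starts and ends, 75 kept direction and call. SYCP3 in Prdm9KO turned to 1.17 (wider 50%) and 0.809 (without the distal run), and IHO1 in Prdm9KO fell to -2.12, not called, without the run. Apart from settings whose construction removes sites, the cause was not tested. Sequencing depth, unknown here, and 1 list per group limit every share.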

Other observations

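Genes without a protein product were at recurrent sites in shares given here without a test, beside those of Iho1KO-only sites. Starts of long non-coding RNAs lay within 1 kb of 62 of 654 recurrent sites (9.48%) and of 227 of 2207 Iho1KO-only sites (10.3%). Where no protein-coding start or end was near, 9 of 81 recurrent sites (11.1%, 5.96 to 19.8) and 20 of 319 Iho1KO-only sites (6.27%, 4.09 to 9.48) were at such a start. Recurrent sites overlapped 4 of 1005 autosomal miRNA hairpins, those of Mir207, Mir5627, Mir7238 and Mir8102, and Iho1KO-only sites overlapped 16.

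The recurrent sites kept their distance from the wild-type lists by selection, and their distances beyond it are given here without a test. The median gap to the nearest CTCF peak was 13.6 kb for both kinds of site, and 7 recurrent and 47 Iho1KO-only sites came within 1 kb of one. For DMC1 hotspots these numbers were 10 and 21, for HORMAD1 peaks 4 and 5, and for IHO1 peaks 2 and 1. The median gap to a DMC1 hotspot was 39.9 kb for recurrent and 46.5 kb for Iho1KO-only sites, that to a wild-type HORMAD1 peak 237 and 274 kb, and that to a wild-type IHO1 peak 382 and 408 kb.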
